A study of Ovis aries with 18 samples.

Results

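The rows described here are those that the deposited miRNA tables list with miR-183, miR-96 or miR-182, chosen by the number in the row name or in the name of a known miRNA with the same seed. There were 6 such rows among the 768 rows found in either of 2 tables, and all 6 stood in both. Of these, 4 are listed with miR-96 (X_36488, 5_29334, JH923873.1_37345 and JH923873.1_37349) and 2 with miR-183 (JH923873.1_37347 and JH923873.1_37351). None is listed with miR-182, which is therefore not analysed here. All 6 are predicted loci that carry no sheep miRNA name, and a shared seed is not an identity. They are called by their identifiers, whose first part matches the name of a chromosome or scaffold, and the tables give no coordinates.

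The 4 rows on scaffold JH923873.1 were the only rows of that scaffold in either table. Their numbers alternate between miR-96 and miR-183 in order, and each type has a second row with the same deposited values in every vesicle library. JH923873.1_37349 repeats JH923873.1_37345 and JH923873.1_37351 repeats JH923873.1_37347, so the 6 rows hold 4 distinct signals, and each pair is described once. The counting could assign a read to both rows of a pair, so a pair cannot be split between its loci.

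In mammals miR-183, miR-96 and miR-182 are encoded close together and transcribed as a common precursor. They are known for their abundance in sensory cells of the ear and retina and for their presence in epithelia. In human endometrial cancer cells these miRNAs repress FOXO1, a transcription factor that works with the progesterone receptor in human endometrium. A miRNA selects its targets mainly through the seed near its 5′ end. In human, miR-1271 has the seed of miR-96, and 0 vesicle rows were listed with it.

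Small RNA was sequenced from ovariectomized ewes (Ovis aries). In the P4+RU486 group progesterone (P4) was injected at 50 mg a day over 14 days, together with 50 mg of RU486 (mifepristone, an antagonist of the progesterone receptor) from day 8 to day 14. The P4 group received the same progesterone without RU486. All ewes lacked ovaries, so progesterone came from the injections in both groups, and the labels give no age or breed. Extracellular vesicles (EV), small membrane particles shed by cells, were isolated from a 10 ml flush of the uterine lumen and gave 4 libraries per treatment. Endometrium, the inner lining of the uterus, gave 5 libraries per treatment. Each library of a group comes from a separate ewe. The vesicle columns show the treatment but not the ewe, and the libraries are called R01 to R04 (P4+RU486) and P01 to P04 (P4).

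The vesicle libraries held 101186 to 328453 reads in listed rows in P4+RU486 and 97202 to 1062646 in P4. Values are normalized CPM, reads scaled by the authors to a common, adjusted library size. A single read was worth 3.13 to 10.4 normalized CPM in P4+RU486 libraries and 1.10 to 9.54 in P4 libraries. The epithelial miR-200 list was present in both treatments, with 5 of 5 rows tested and a summed level of 10482 to 15999 normalized CPM in P4+RU486 and 7118 to 30229 in P4. Leukocyte rows summed to 2286 to 5094 in P4+RU486 and 2512 to 14818 in P4, and smooth muscle rows (miR-143 and the miR-145 seed) to 9730 to 14935 in P4+RU486 and 10828 to 16531 in P4. Most of the leukocyte sum came from miR-150 (mean 2282 in P4+RU486 and 5859 in P4). Of the 4 leukocyte rows, 3 were lower in P4+RU486 and 1, with the miR-142b seed, was higher (mean 55.5 against 19.7). Nearly all of the smooth muscle sum came from miR-143 (mean 12211 in P4+RU486 and 12899 in P4). The miR-145 seed row averaged 36.4 in P4+RU486 and 99.97 in P4, with overlapping libraries (limma adjusted p = 0.317). The multiciliated list, matched by 4 rows with a miR-34b or miR-34c-3p seed, summed to 11174 to 19140 in P4+RU486 and 10637 to 14908 in P4. The erythroid list was matched by only 1 row, with the miR-486 seed, at 1848 to 5427 in P4+RU486 and 281 to 7365 in P4. The stromal list summed to 136 to 593 in P4+RU486 and 83.5 to 849 in P4. For all 6 lists the ranges of the treatments overlapped, and no row matched the endothelial list. The part of cell make-up in the results was not tested. In vesicle RNA, fewer vesicles of a cell type and less RNA per vesicle cannot be told apart.

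X_36488, listed with miR-96 and numbered on the X chromosome, was lower in every P4+RU486 library than in any P4 library. Its values were 38.8, 62.6, 19.1 and 73.1 normalized CPM in R01 to R04, from 9, 20, 4 and 7 reads. In P01 to P04 they were 173, 152, 104 and 143, from 22, 81, 95 and 15 reads. The lowest P4 library (P03) thus lay above the highest P4+RU486 library (R04), and R03 was the lowest of all 8. R04 rests on 7 reads worth 10.4 normalized CPM each, so this separation hangs on a few reads. Its mean was 48.4 ± 24.2 in P4+RU486 and 143 ± 28.6 in P4 (SD, n = 4 each), a ratio of means of 2.95-fold lower in P4+RU486. The log2 difference was -1.68 (SE 0.47, 95% interval -2.71 to -0.66), and it did not pass after adjustment over all rows tested (limma adjusted p = 0.141).

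The test was limma on log2(value + 1) over the 229 vesicle rows with a mean of at least 10 normalized CPM, p-values adjusted by Benjamini-Hochberg, and rows called at an adjusted p under 0.05. A larger added value shrinks the difference of a low row: for X_36488 it was -1.70 with 0.5 added and -1.58 with 5 added. Rows with a value of 0 can still differ more on this scale than their means do. JH921839.1_36755, for example, differed by 2.29 at a ratio of means of 1.08. In that test 0.437% of rows passed, and none of the 4 rows described here that met the filter did. Libraries of the treatments did not overlap in 5.24% of rows with P4+RU486 the lower, and X_36488 was among these. With P4+RU486 the higher the share was 4.80%, which none of the 4 rows joined, and with either direction it was 10.0%. Across all 229 rows the median log2 difference was 0.04, with 118 rows higher and 111 lower.

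5_29334, also listed with miR-96 and numbered on chromosome 5, did not share the values of X_36488. It was at 116, 197, 66.9 and 41.8 normalized CPM in R01 to R04, from 27, 63, 14 and 4 reads. In P01 to P04 it was at 70.7, 46.8, 56.0 and 76.3, from 9, 25, 51 and 8 reads. R01 and R02 lay above all P4 libraries, while R03 lay within their range and R04 below it, so the groups overlapped. Its mean was 105.6 ± 68.5 in P4+RU486 and 62.5 ± 13.5 in P4 (SD, n = 4 each). The log2 difference was 0.54 (SE 0.50, 95% interval -0.55 to 1.63, limma adjusted p = 0.704). Without R02 it was 0.16.

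The rows listed with miR-183, JH923873.1_37347 and its repeat, had the highest mean read level of the 4 signals. They stood at 518, 401, 435 and 386 normalized CPM in R01 to R04, from 120, 128, 91 and 37 reads. In P01 to P04 they stood at 126, 318, 451 and 353, from 16, 170, 410 and 37 reads. P01 was lowest and P03 exceeded 3 of the P4+RU486 libraries, so the groups overlapped. The mean was 435 ± 58.8 in P4+RU486 and 312 ± 136.2 in P4 (SD, n = 4 each), and the log2 difference was 0.61 (SE 0.39, 95% interval -0.24 to 1.46, limma adjusted p = 0.516). Without P01 it was 0.22. P01 also had the lowest sum of the epithelial list (7118) and the highest of the leukocyte list (14818, of which miR-150 made up 13655). The part of these in the P01 value was not tested.

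The rows listed with miR-96 on the same scaffold, JH923873.1_37345 and its repeat, were close to the limit of detection. In R01 to R04 they had 1, 6, 0 and 1 reads (4.31, 18.8, 0 and 10.4 normalized CPM), and in P01 to P04 they had 0, 7, 5 and 1 (0, 13.1, 5.49 and 9.54). A count of 0 allows up to 14.3 normalized CPM in R03 and 23.6 in P01, for counting error only. Both treatments thus had a library without a read, and the ranges overlapped. The rows fell short of the mean of 10 and were not tested. On this scaffold the reads listed with miR-96 came to 2.13% of those listed with miR-183 in P4+RU486 (8 against 376) and 2.05% in P4 (13 against 633), over the 4 libraries of each group. In single libraries the percentage ran from 0 to 4.69% in P4+RU486 and from 0 to 4.12% in P4. Without R02 the P4+RU486 value was 0.806% (2 against 248). The P4 value was 1.30% without P02 (6 against 463) and 3.59% without P03 (8 against 223), so these few reads give no settled percentage in either treatment.

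**Figure D1:**
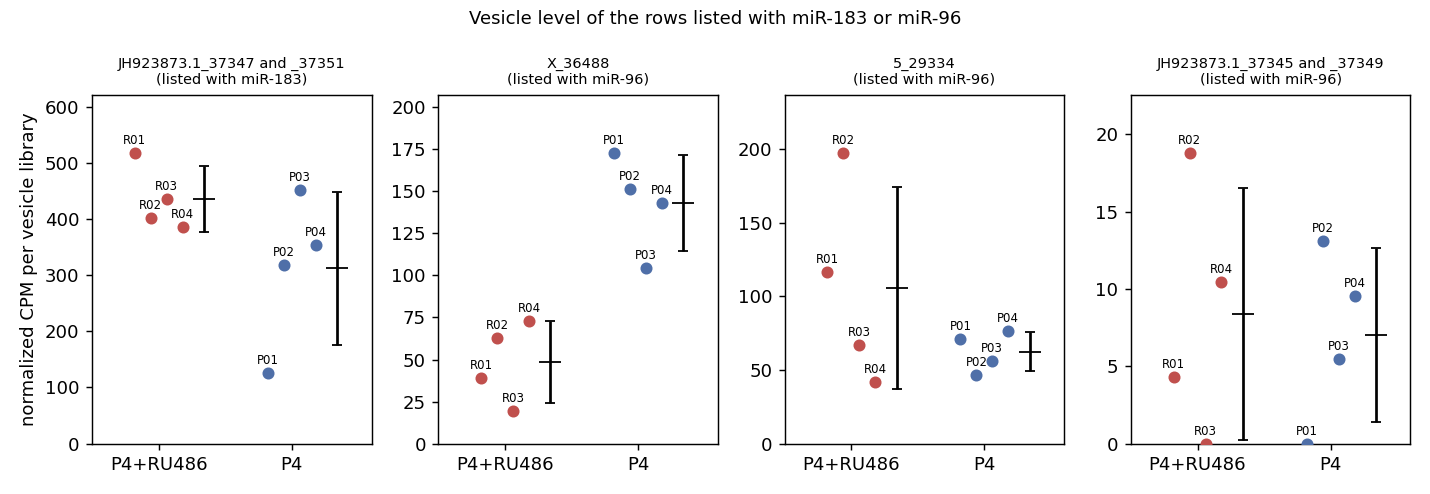
Normalized CPM (y axis, a scale of its own in each panel) of the 4 distinct signals in each vesicle library, with P4+RU486 in red and P4 in blue, and the mean with its SD as black bars (n = 4 each). X_36488 lies at 19.1 to 73.1 in P4+RU486 and 104 to 173 in P4, while the groups overlap in the other 3 panels.

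By mean level, the order of X_36488 and 5_29334 differed between treatments. Mature miRNAs are of similar length, so levels were set side by side without scaling to length. They are levels of reads, and how evenly different miRNAs were captured in the libraries was not measured, so the order is one of reads. In P4+RU486 the miR-183 rows (386 to 518) came first, then 5_29334 (41.8 to 197), X_36488 (19.1 to 73.1) and JH923873.1_37345 (0 to 18.8), and the ranges of 5_29334 and X_36488 overlapped. In P4 the order was the miR-183 rows (126 to 451), X_36488 (104 to 173), 5_29334 (46.8 to 76.3) and JH923873.1_37345 (0 to 13.1). There the miR-183 rows and X_36488 overlapped through P01, and X_36488 lay above 5_29334 in every P4 library. X_36488 lay below 5_29334 in R01, R02 and R03, while R04 had the order of the P4 libraries (73.1 for X_36488 and 41.8 for 5_29334). As shares of all reads in listed rows, X_36488 held 0.00466% ± 0.00227 in P4+RU486 and 0.0153% ± 0.00564 in P4 (SD, n = 4 each). The share of 5_29334 was 0.0102% ± 0.00663 in P4+RU486 and 0.00666% ± 0.00244 in P4, and that of JH923873.1_37347 was 0.0422% ± 0.00560 in P4+RU486 and 0.0307% ± 0.0103 in P4 (SD, n = 4 each).

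The reads listed with miR-96 came mostly from different rows in the 2 treatments. With repeats counted once, X_36488 supplied 24.3%, 22.5%, 22.2% and 58.3% of them in R01 to R04, and 71.0%, 71.7%, 62.9% and 62.5% in P01 to P04. R01, R02 and R03 stood far below every P4 library, and R04 stood just below them. R04 had 12 such reads, 7 of them from X_36488, and the 95% Clopper-Pearson interval of its share ran from 27.7% to 84.8%, for counting error only. The summed level of the rows listed with miR-96 was 159.6, 279, 86.1 and 125 normalized CPM in R01 to R04 and 244, 212, 166 and 229 in P01 to P04, and here the groups overlapped through R02.

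Whether these rows differed from each other in their response was tested on the log2 ratio of their values within each library, for all 3 pairs of distinct tested signals. The ratio of X_36488 to 5_29334 was 0.333, 0.317, 0.286 and 1.75 in R01 to R04, and 2.44, 3.24, 1.86 and 1.88 in P01 to P04. R04 was far from the other P4+RU486 libraries and close to P03 and P04. On the log2 scale the ratio averaged -1.04 ± 1.22 in P4+RU486 and 1.18 ± 0.37 in P4 (SD, n = 4 each), a difference of -2.22. This ratio was lower in P4+RU486 (2-sided exact permutation test, p = 0.0286, and 0.0429 after adjustment over the 3 pairs). No split of 4 against 4 can go below 0.0286. The ratio was lower in 4 of 4 P4+RU486 libraries than in any P4 library, but R04 rests on 7 reads of X_36488 and 4 of 5_29334. On the log2 scale R04 stood at 0.79, just below P03 at 0.89, so the separation and its p-value hang on a few reads.

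The ratio of X_36488 to JH923873.1_37347 was 0.0750, 0.156, 0.0440 and 0.189 in R01 to R04, and 1.37, 0.476, 0.232 and 0.405 in P01 to P04. P01, where the miR-183 rows were lowest, was highest, and the groups did not overlap. X_36488 by itself did not overlap either, like 10.0% of the tested rows in either direction. The share of all row pairs whose ratio separates the groups was not determined, so the separation is not shown to be particular to these pairs. The log2 ratio averaged -3.30 ± 0.95 in P4+RU486 and -1.00 ± 1.07 in P4 (SD, n = 4 each), a difference of -2.30. It too was lower in P4+RU486 (exact permutation p = 0.0286, adjusted p = 0.0429). Both of these ratios have X_36488 on top, so they are not independent results. Each adjusted p of 0.0429 relies on both ratios standing at the smallest possible p. The log2 ratio of 5_29334 to JH923873.1_37347 averaged -2.26 ± 0.93 in P4+RU486 and -2.19 ± 0.97 in P4 (SD, n = 4 each), a difference of -0.07 with overlapping groups (exact permutation p = 0.886, adjusted p = 0.886). With 1 library left out, the adjusted p of the first 2 ratios was 0.0857 each time, except without R04, where it was 0.0429. Without the 3 libraries with the fewest reads (P01, P04 and R04) the differences were -2.93 and -2.02, in a design whose smallest p is 0.1.

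**Figure D2:**
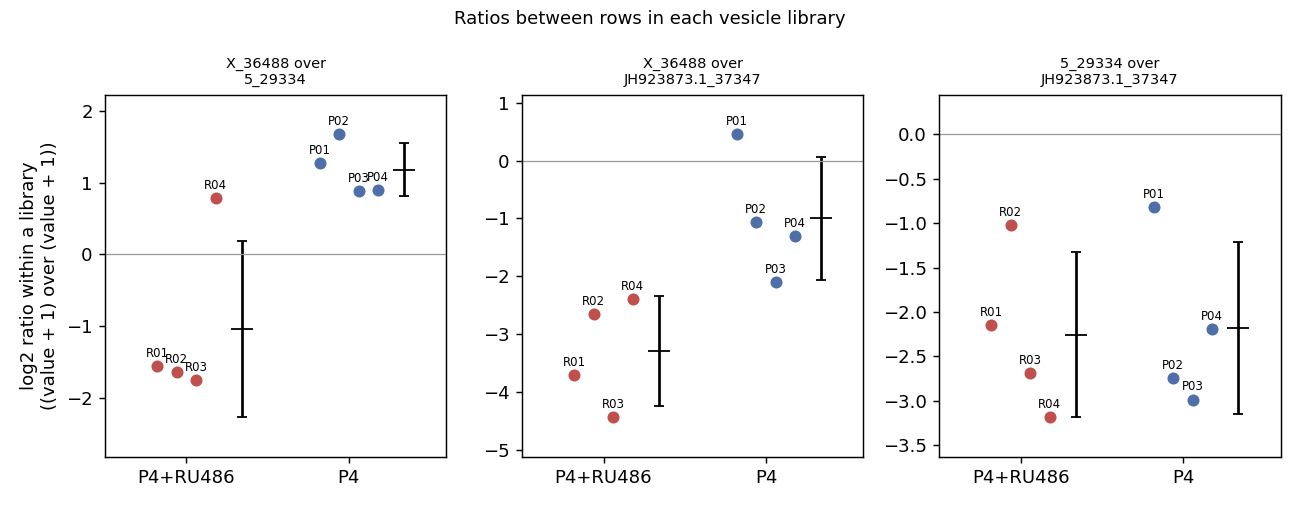
The log2 ratio of normalized CPM between pairs of rows within each vesicle library (y axis), with P4+RU486 in red, P4 in blue, and the mean with its SD as black bars (n = 4 each). Both ratios with X_36488 on top lie lower in all P4+RU486 libraries, R04 being nearest to P4 in the left panel, and the ratio of 5_29334 to JH923873.1_37347 overlaps.

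The difference of X_36488 kept its sign in all 20 alternatives and passed in none, with log2 values from -1.93 to -1.31 and adjusted p-values from 0.0741 to 0.392. Its libraries did not overlap between treatments, so leaving libraries out or changing the added value could not have reversed the sign. The adjusted p was 0.0741 with DESeq2 and 0.216 with edgeR's quasi-likelihood test, both on recovered reads. Without the 3 libraries with the fewest reads the limma log2 difference was -1.77 (limma adjusted p = 0.275). The median SE over all rows was 0.51, so the SE of X_36488 (0.47) was of usual size for these libraries.

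**Figure D3:**
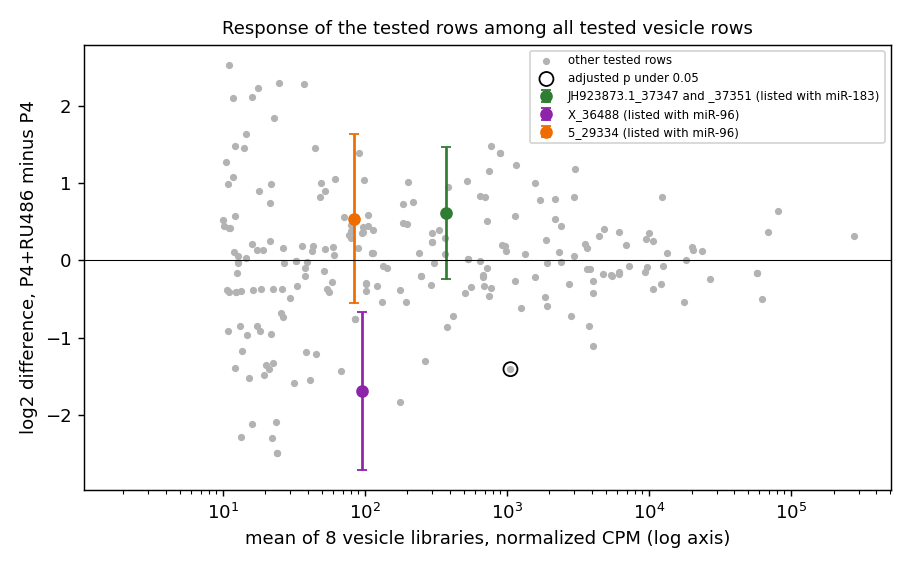
The log2 difference between P4+RU486 and P4 (y axis) against the mean normalized CPM of the 8 vesicle libraries (x axis, log scale) for the 229 tested rows, with 95% intervals for X_36488, 5_29334 and JH923873.1_37347. X_36488 is at -1.68 and the others at 0.54 and 0.61, and the circle marks the 1 row past the threshold.

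The rows with the most similar pattern were sought among the 225 other tested rows, by the root-mean-square difference of log2(value + 1) over the 8 vesicle libraries after centring each row on its mean. For X_36488 these were miR-99a (0.53), 1_2631 with the miR-190a seed (0.53) and 15_10735 with the miR-130a seed (0.60), where the median over the 225 rows was 1.23. 1_2631 averaged 25.7 ± 8.00 normalized CPM in P4+RU486 and 64.6 ± 36.6 in P4, and 15_10735 averaged 269.7 ± 76.4 in P4+RU486 and 485.6 ± 124.4 in P4 (SD, n = 4 each). Neither of them passed (limma adjusted p = 0.325 and 0.285). miR-99a averaged 584 ± 83.9 in P4+RU486 and 1541 ± 146 in P4 (SD, n = 4 each). It was the 1 tested row past the threshold (log2 difference -1.40, limma adjusted p = 0.0225). The distance between X_36488 and 5_29334, which are listed with the same miRNA, was 1.36, and that to JH923873.1_37347 was 1.44, both above that median.

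For JH923873.1_37347 the most similar rows were miR-10a (0.22), 12_7241 with the miR-205 seed (0.23) and X_35370 with the let-7f seed (0.25), against a median of 0.79. All 3 had their lowest value in P01, as the miR-183 rows did. 12_7241 was at 1846 normalized CPM in P01 and at 4216 to 6306 in the other P4 libraries, against 4698 to 6092 in P4+RU486. For 5_29334 they were 3_26580 with the miR-148a seed (0.46), 5_29929 with the miR-181a seed (0.52) and 1_3299 with the miR-16b seed (0.55), against a median of 0.92.

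**Figure D4:**
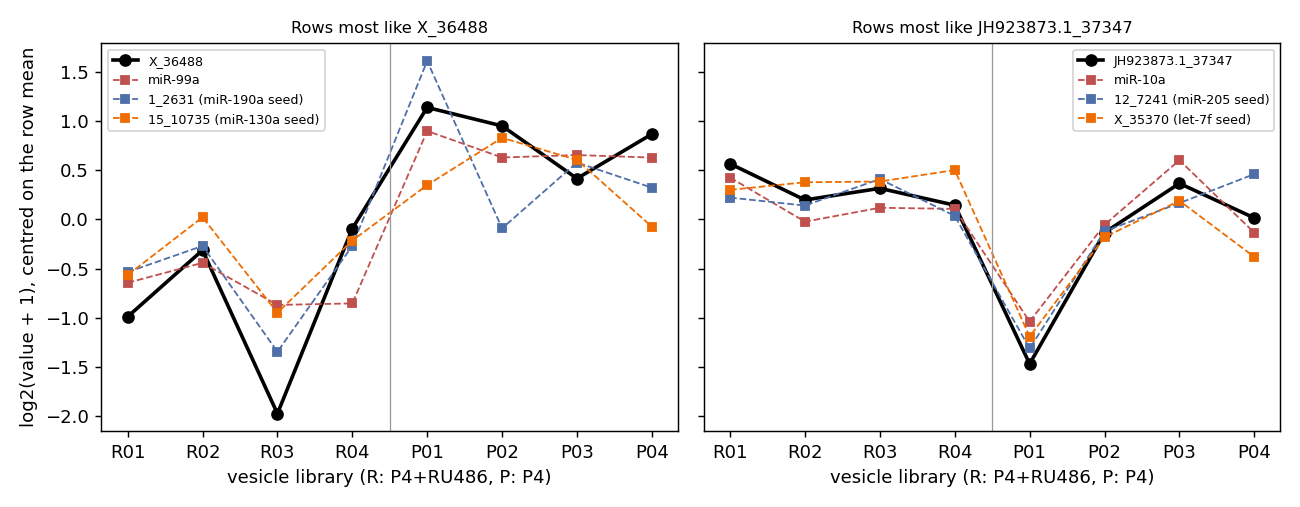
Log2(value + 1) centred on the row mean (y axis) in each vesicle library (x axis, P4+RU486 left of the line, P4 right of it) for X_36488 and JH923873.1_37347 in black with the 3 most similar rows of each. The left panel shows X_36488 low in R03 and high in P01, and the right panel shows all 4 rows lowest in P01.

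Other miRNAs known to repress FOXO1 in human endometrial cancer cells (miR-9, miR-27a, miR-27b, miR-153 and miR-186) were matched by 7 vesicle rows, 5 of which were tested. None passed, 4 were higher and 1 lower in P4+RU486, and the median log2 difference was 0.25, against 0.04 over all rows tested. These counts and the median of 0.25 include 1_2685 and 5_30487 as separate rows, though they have the same values. The rows 1_2685 and 5_30487, listed with miR-9-5p and with the same values, averaged 1183 ± 299 normalized CPM in P4+RU486 and 615 ± 465 in P4 (SD, n = 4 each), 1.39 higher on the log2 scale (SE 0.61), with a limma adjusted p of 0.325. 2_16700, with the miR-27a-3p seed, averaged 21005 ± 3906 in P4+RU486 and 19008 ± 6111 in P4 (SD, n = 4 each). miR-27a averaged 11680 ± 2018 in P4+RU486 and 9817 ± 1481 in P4 (SD, n = 4 each). 1_2197, with the miR-186 seed, averaged 8807 ± 1702 in P4+RU486 and 10087 ± 3307 in P4 (SD, n = 4 each). Each of these rows had a far higher mean read level than X_36488. The epithelial miR-200 list had 4 rows higher, 1 lower and none past the threshold, with a median of 0.08.

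In the authors' deposited table for vesicles, where a positive fold is higher in P4, X_36488 is listed at a fold of 2.99 (adjusted p = 0.11). A fold of that size or larger is listed for 22.4% of the 495 rows in the authors' deposited table, and 1.82% of the rows have an adjusted p under 0.05. For 5_29334 the authors' deposited table gives -1.71 (adjusted p = 0.77), for JH923873.1_37347 -1.35 (adjusted p = 0.84) and for JH923873.1_37345 -1.13 (adjusted p = 0.99). These signs, with X_36488 opposite to the others, are those of the values per library.

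In endometrium the same rows were available only through the authors' deposited table, since its columns per library match no label and were not used. The numerator of its folds is not named, so which treatment was higher is not stated. Of its 761 rows 1.18% have an adjusted p under 0.05, and none of the 6 rows is among them. The miR-183 rows have a fold of -1.82 in the authors' deposited table (adjusted p = 0.288), a size reached by 19.7% of its rows, and the miR-96 rows of the same scaffold -1.49 (adjusted p = 0.651). X_36488 has 1.32 (adjusted p = 0.73) and 5_29334 has 1.10 (adjusted p = 0.976) in the authors' deposited table. The scaffold rows thus share a sign there, and the rows numbered on chromosomes X and 5 have the other. A difference in response between vesicles and endometrium was not tested.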

How the data were processed

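Per the submitters' processing notes, the authors used cutadapt 1.11 and edgeR with the sheep build Oar_v3.1. How reads were aligned, loci predicted and reads filtered is not given in the sources used here. The deposited vesicle signal is in normalized CPM, judged from the values: the authors scaled the reads of a row to a library size adjusted by TMM factors. Both tables hold the authors' signed fold, deposited as a score in which a fold under 1 is minus its inverse, and the authors' adjusted p-value. The 10 endometrium value columns match no label and were not used.

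In each vesicle column 100% of values came out as whole reads within 0.1 read, so reads were recovered. On them edgeR (4.0.16) called 1 row over the 229 rows that limma tested and 6 over all 495 without a filter, and DESeq2 (1.42.0) called 4 over the 229. limma (3.58.1, trend, R 4.3.3) was run on log2(value + 1) for the rows whose mean reached 10, which held 99.9% of reads. Ratios used 2-sided exact permutation over 70 splits. Counting intervals and floors use 3 reads and 95% confidence and cover counting error only. The procedure was tested on simulated data with the same spread setting for every row, which cannot show its sensitivity for the rows described here. The members, lists and tests were chosen with earlier results of these data known. Named beside the members were the listed rows and the 3 rows most similar to each tested signal.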

Additional observations from a re-analysis of the deposited data

Results flagged for a closer look

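Of 18 groups of 4 libraries examined for a library far from the others, 2 stood out, both through R04, where chance gives about 1 in 20. The ratio of X_36488 to 5_29334 in P4+RU486 was 1.75 in R04 and 0.286 to 0.333 in the other 3, a gap of 0.968 of the group's range. The percent of miR-96 reads from X_36488 was 58.3% in R04 and 22.2% to 24.3% in the others, a gap of 0.942 of the range. Both values rest on 7 reads of X_36488 and 4 of 5_29334 in R04, the P4+RU486 library with the fewest reads (101186), and the part of depth was not tested.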

How the results depend on the processing

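X_36488, 5_29334 and JH923873.1_37347 kept their sign in all 20 alternatives each, and none passed in any. For X_36488, whose libraries did not overlap, leaving libraries out could not have reversed it. The log2 difference ranged from 0.16 to 1.16 for 5_29334 (highest without the 3 libraries with the fewest reads) and from 0.22 to 0.83 for JH923873.1_37347. The count of rows past the threshold, 1 with limma, was 6 with edgeR on recovered reads without a filter, 4 with DESeq2, 6 with log2 reads as a covariate and 0 to 2 with 1 library left out (2 without P02, 0 without P04, R01, R03 or R04). The ratio of X_36488 to 5_29334 differed by -2.84 to -1.99 with 1 library left out, and that of X_36488 to JH923873.1_37347 by -2.66 to -1.81. Without P01, P04 and R04 together they were -2.93 and -2.02 (adjusted p = 0.2 by exact permutation, where 2 against 3 libraries cannot pass). The ratio of 5_29334 to JH923873.1_37347 had no settled sign, from -0.48 to 0.38 with 1 library left out (0.38 without P01, 0.07 without R03, 0.24 without R04) and 0.91 without those 3. The share of JH923873.1_37345 in P4+RU486 was 0.000806%, and 0.000466% without R02. Leaving out 1 library moved no other share by over 1.5 times. Leaving out libraries for the percentage of miR-96 reads on the scaffold was added after seeing the data. Alternatives for endometrium were not run. No paired analysis was possible because no ewe had both treatments and the columns name no ewe. X_36488 rests on 40 reads in P4+RU486 and 213 in P4, which limits its precision.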

Other observations

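Among vesicle rows, 164 fall into 41 groups with identical values in all 8 libraries, and in 4 of these groups the authors' deposited table gives its rows different folds or adjusted p-values. The miR-183 rows JH923873.1_37347 and JH923873.1_37351 are 1 such group, with folds of -1.35 and -1.36 and adjusted p-values of 0.84 and 0.96 in the authors' deposited table. In the other 3 groups the folds differ by 0.01 and the adjusted p-values are the same.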
